A study of Arabidopsis thaliana with 6 samples.

Results

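The untreated wild-type library of an Arabidopsis thaliana seedling series was examined on its own, as a catalogue of which microRNAs (miRNAs) the seedlings held and of how each miRNA duplex was split between its strands. It is 1 of the 6 samples of the series and was chosen by its label, not by any measured value. The seedlings were WT of ecotype Col-0, 10 days old, raised on agar plates, moved into water the day before the other arm of the study received flg22, and given no flg22 themselves. The other 5 samples, parg1-1 and parp1parp2 seedlings with or without 100 nM flg22 and WT with flg22, entered only to find intervals whose counts were identical in every sample. No value is compared between libraries. As the group holds 1 library, no value has a replicate error, and the intervals given are exact 95% binomial (Clopper-Pearson) intervals that cover counting error alone.

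A plant miRNA is cut by the nuclease DCL1 from the stem of a folded precursor RNA as a short duplex whose strands each end in a short 3′ overhang. ARGONAUTE proteins keep the guide strand, called the mature miRNA, and the partner, called the star strand, is usually degraded. In plants the choice is known to depend on the first base, since AGO1 favours a 5′ U, AGO2 a 5′ A and AGO5 a 5′ C, and on which duplex end opens more easily.

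Sequences are given as DNA letters of the TAIR10.1 reference, with T for U, 5′ to 3′. The first set shows the 5 mature miRNAs with most counts, with the seed (bases 2 to 8) in capitals. miR398b acts on transcripts of copper/zinc superoxide dismutases, miR159a and miR159b on GAMYB-type transcription factors, and miR166a on HD-ZIP III factors that set leaf polarity.
miR398b: tGTGTTCTcaggtcacccctg
miR159a: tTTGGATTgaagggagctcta
miR159b: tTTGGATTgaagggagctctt
miR166a: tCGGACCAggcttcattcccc
miR158a: tCCCAAATgtagacaaagca

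The second set shows the duplexes in which the star strand had more counts than the mature one, and miR171a, in which it did not but whose star is that of miR170, again with bases 2 to 8 in capitals. miR393a and miR393b have the same mature sequence and differ in the star, and miR170 and miR171a have the same star and differ in the mature sequence.
miR393b: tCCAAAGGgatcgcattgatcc
miR393b-star: aTCATGCGatctctttggatt
miR393a-star: aTCATGCTatctctttggatt
miR169d: tGAGCCAAggatgacttgccg
miR169d-star: gCAAGTTGaccttggctctgt
miR170: tGATTGAGccgtgtcaatatc
miR171a: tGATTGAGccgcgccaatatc
miR170-star: tATTGGCCtggttcactcaga

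The deposited table listed 679 intervals, namely 337 mature miRNAs, 334 star strands and 8 TAS loci, which are precursors of trans-acting siRNAs. The library held 284814 counts over all intervals. All 82 sequences listed more than once had the same count at each listing. They include sequences at several loci, intervals with both a mature and a star name, and sequences at 0, for which equality carries no information. Reads of a detected sequence at several loci, such as miR166a with 10980 counts at each of 7 loci, had thus been counted once per locus. With intervals of identical counts in all 6 samples taken once, the total was 142289 counts, which is the base of the shares below. A count of 0 allows up to 3 counts, or 0.00211% of that total. Adapter ligation in small RNA libraries is known to depend on sequence, so the order of miRNAs by count need not be their order by molecules, and its part here was not tested. The files hold miRNA intervals alone, so the labelled tissue could not be set against mRNA markers.

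A handful of miRNAs made up most of the library. Mature intervals held 96.1% of the counts and star intervals 3.90%. miR398b was first, with 30239 counts or 21.3%. miR159a followed with 17646 counts (12.4%, interval 12.2% to 12.6%), miR159b with 14796 (10.4%), miR166a with 10980 (7.72%) and miR158a with 10441 (7.34%). These 5 sequences held 59.1% of all counts, the first 10 held 75.8% and the first 20 held 89.9%. The neighbouring intervals of these 5 shares did not overlap, so their order was beyond counting error within this library.

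**Figure D1:**
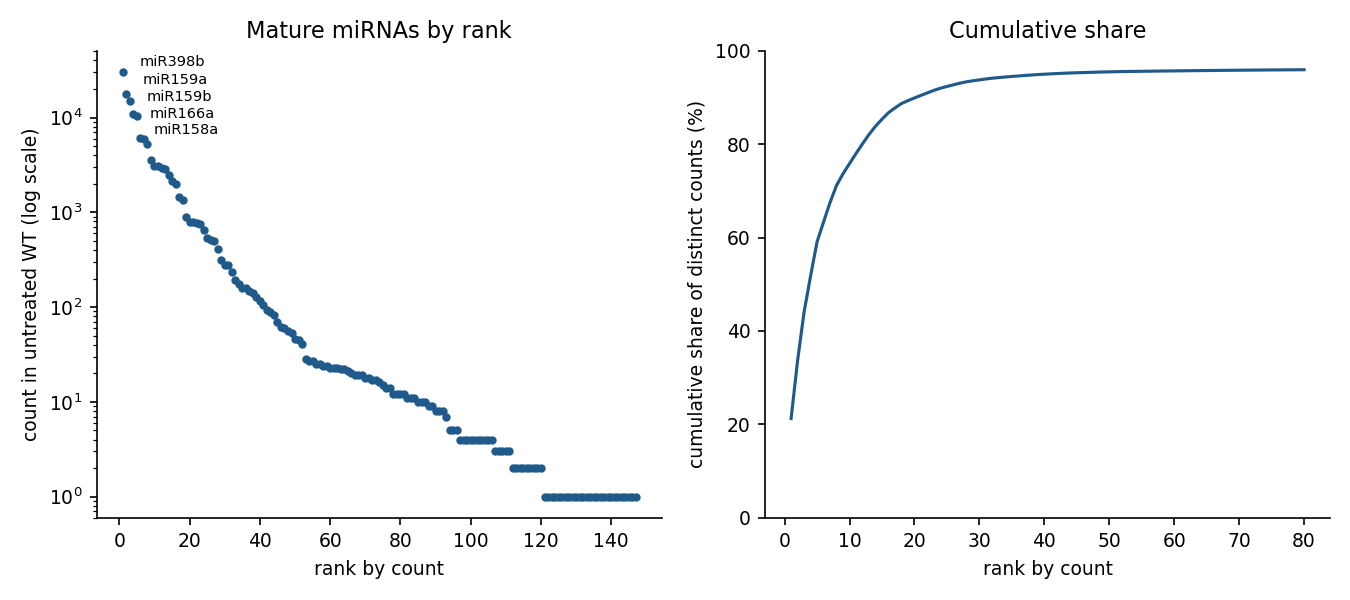
Counts of distinct mature miRNAs in untreated WT by rank (left, log axis) and their cumulative share of the 142289 distinct counts (right, leading ranks). Each point is 1 sequence of 1 library. The highest 5, from miR398b to miR158a, hold 59.1% of the counts, and the points run down to single reads.

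The lower ranks fell off steeply. Of 270 distinct mature sequences listed, 114 had no counts. Of the others, 5 sequences had at least 10000 counts, 13 had at least 1000, 23 at least 100, 46 at least 10, and 69 had from 1 to 9. The median detected sequence had 12 counts. Among mature counts alone, 4 sequences held 50%, 16 held 90% and 43 held 99%.

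Ranks 6 to 20 were filled largely by regulators of development and of the small RNA pathway itself. miR161.1, which targets pentatricopeptide repeat (PPR) transcripts, had 6015 counts, and miR396a, which targets growth-regulating factors, had 5966. Their shares of 4.23% (4.12% to 4.33%) and 4.19% (4.09% to 4.30%) overlapped, so these neighbours in the order did not differ beyond counting error. miR156a, which targets SPL factors that promote the adult phase, had 5199, and miR167a, which targets auxin response factors, had 3540. miR403, which targets AGO2, had 3101 counts and miR396b had 3074, again with overlapping intervals. miR165a, a sister of miR166a with the same seed, had 2939 and miR408, a copper-responsive miRNA that targets plantacyanin and laccases, had 2862. miR162a, which targets DCL1, had 2490.

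The last of the first 20 included miRNAs of narrower distribution among plants. miR5026, with 2148 counts, was the highest of the families numbered 1000 and above. miR157a had 1993 counts and miR163, a 24-base miRNA that acts on methyltransferase transcripts, had 1443. miR319a, which targets TCP factors, had 1337, miR160a, which targets auxin response factors, had 898, and miR173-5p, which triggers siRNA production from TAS1 and TAS2 transcripts, had 798. A single star interval stood among the 20 intervals with most counts, miR398b-star with 2287 counts, in fifteenth place when mature and star intervals were ranked together.

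Few of the leading miRNAs lie in protein-coding genes of the annotation. miR398b lies on chromosome 5 from 4691107 to 4691127 on the plus strand, opposite an exon of AT5G14550. miR408 lies on chromosome 2 from 19319933 to 19319953 on the plus strand, opposite an exon of AT2G47020. Of the 6 loci that share the sequence of miR156a, miR156d (chromosome 5, 3456713 to 3456732, minus strand) stands in an intron of AT5G10946. The other loci of the first 20 sequences, such as miR159a (chromosome 1, 27713234 to 27713254, minus strand) and miR5026 (chromosome 4, 7844612 to 7844632, plus strand), overlapped none. Lower in the order, miR822 (778 counts) lies opposite an intron of AT5G03553, miR400 (56 counts) in an intron of AT1G32583, miR472 (60 counts), which targets NLR immune receptor transcripts, in an exon of AT1G12290, and miR838 (11 counts) in an intron of AT1G01040, the DCL1 gene.

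Summed by family number, miR398 and miR159 led. Of 193 families, 114 had counts and 79 had none. The miR398 family held 32784 counts (23.0%, interval 22.8% to 23.3%) and the miR159 family 32638 (22.9%), shares that overlapped. miR166 held 11505, miR158 held 10592 and miR396 held 9108. The first 5 families held 67.9% of counts, the first 10 held 83.5% and the first 15 held 91.3%. The others of the first 15 were miR161 (6229), miR156 (5256), miR167 (4327), miR165 (3202), miR403 (3101), miR408 (2924), miR162 (2507), miR5026 (2153), miR157 (2056) and miR319 (1507). Had every locus been counted as deposited, miR166, with 7 loci of 1 mature sequence, would have come first with 27.3%, before miR398 with 22.1% and miR159 with 11.5%.

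**Figure D2:**
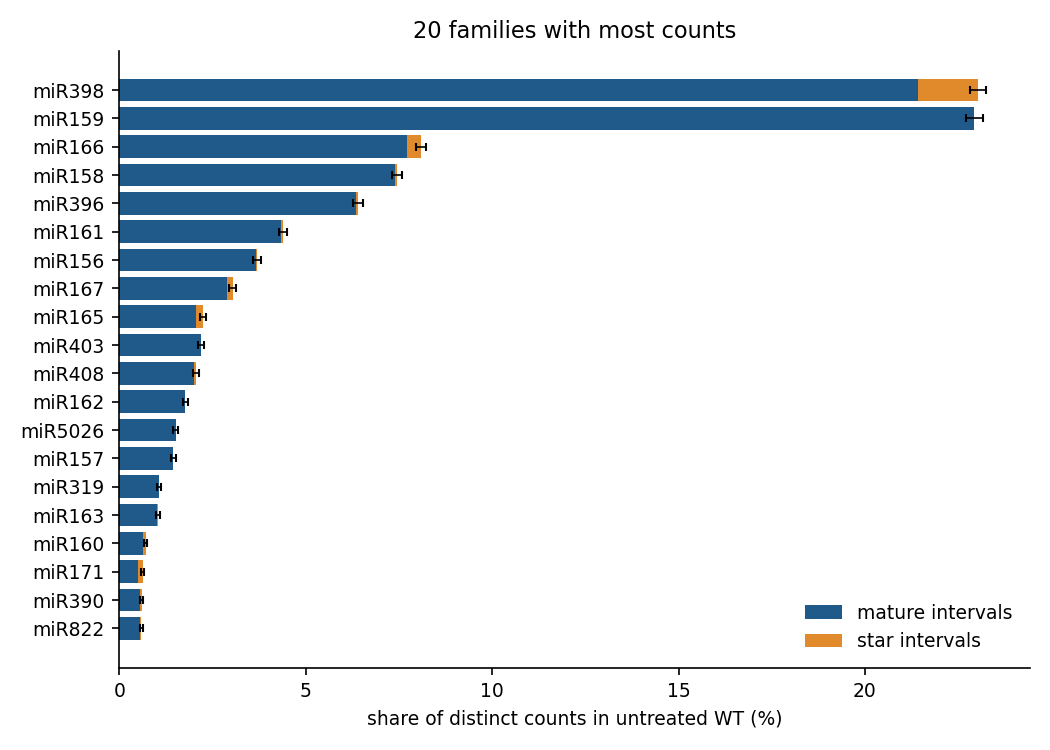
Share of distinct counts held by each of the 20 families with most counts in untreated WT, with mature (blue) and star (orange) intervals stacked. Bars show 1 library and error lines the exact 95% binomial interval. miR398 holds 23.0% and miR159 22.9%, and star counts are visible in miR398, miR166 and miR165.

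Within families, counts were concentrated in different degrees. The miR159 family was shared between miR159a, with 54.1% of its mature counts, and miR159b, which differ at the last base (A21T, positions counted from the 5′ end of miR159a). miR396a held 66.0% of its family against miR396b, which also differ at the last base (G21T). In the miR398 family the sequence of miR398b held 99.2% of mature counts, and miR398a, which differs from it at the last base (G21T), had 234. In the miR156 family the sequence of miR156a held 99.6%. Counts of a minor member that differs by 1 base from an abundant one may hold misassigned reads, which was not tested. Of 131 seeds among detected mature sequences, 19 were shared by more than 1 sequence. The seed shared by miR165a and miR166a carried 13919 counts, and that shared by miR156a, miR156g, miR156j and miR157d carried 5266, while miR157a, which starts 1 base earlier, fell outside that seed.

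Grouped by function, the copper list (miR397, miR398, miR408 and miR857) held 25.2% of counts and the leaf, meristem and growth list 42.4%. The phase list, with miR156, miR157 and miR172, held 5.26%, the auxin list, with miR160, miR167, miR390 and miR393, held 4.87%, triggers aimed at NLR and PPR genes 4.49%, regulators of the small RNA machinery 4.31% and triggers of trans-acting siRNAs 1.17%. The phosphate, sulfate and nitrogen list was scarce, with 480 counts or 0.337%, although it held 32 of the 337 mature intervals. Its highest member was miR399b, which targets the PHO2 transcript, with 174 counts, followed by miR395b, which targets sulfate assimilation genes, with 62, miR827, which targets the NLA transcript, with 25 and miR169a, which targets NF-Y subunit transcripts, with 23. miR845a, of a family that matches primer-binding sites of retrotransposons, had 505.

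Detection differed between deeply conserved families and the others. Of 337 mature intervals, 207 had counts and 130 (38.6%) had none. In the deeply conserved list 9 of 99 were at 0, against 47 of 124 in less conserved families numbered below 1000 and 74 of 114 in those numbered 1000 and above. Conserved sequences often stand at several loci. With each sequence taken once, 8 of 55, 43 of 116 and 63 of 99 were at 0 in the same order. The median mature sequence had 105 counts in the deeply conserved list, 1 in the less conserved families below 1000 and 0 in those of 1000 and above, beside 1 over all 270 sequences. Every mature interval had counts in the lists for auxin (11), leaf, meristem and growth (26), copper (7), small RNA machinery (6), trans-acting siRNA triggers (5) and NLR and PPR triggers (5). In that order, these intervals held 6, 15, 6, 4, 4 and 5 distinct mature sequences. The lowest counts in these lists were 1 for miR173-3p, 2 for miR828, a trigger of TAS4 siRNAs, 3 for miR397a and 10 for miR857, which both target laccases, and 11 for miR838.

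**Figure D3:**
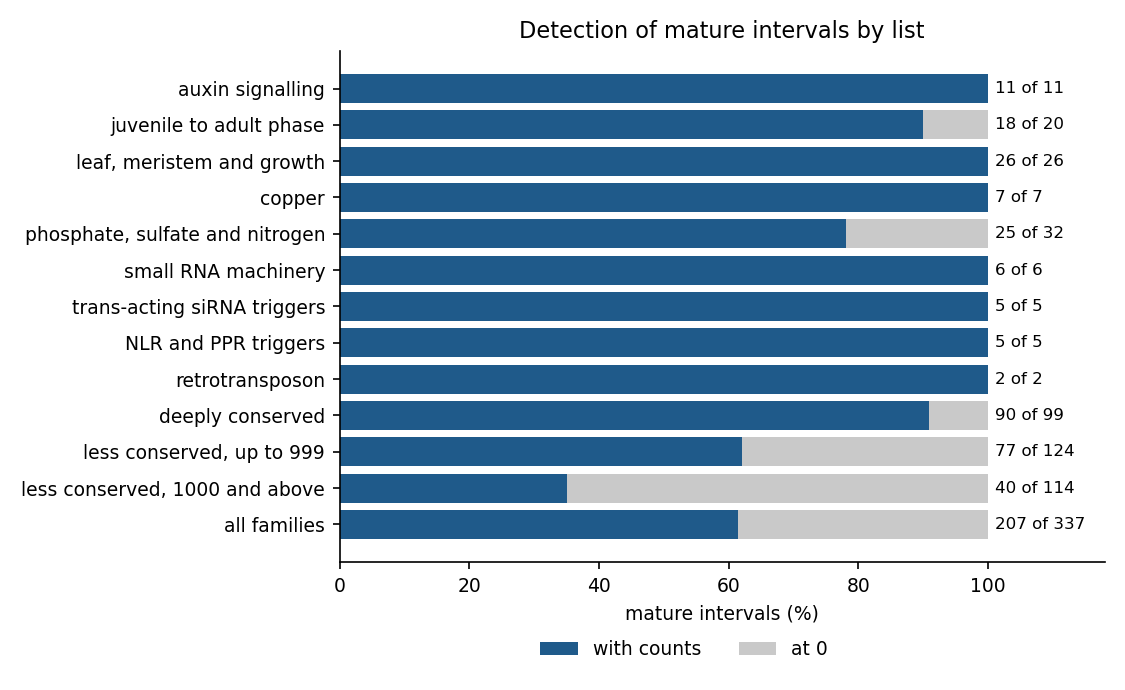
Share of mature intervals with counts (blue) and at 0 (grey) in untreated WT for each list of families, with the number detected of the number listed at the right. The lists overlap, and all families stand in the lowest bar, with 207 of 337. Families numbered 1000 and above have 40 of 114 detected, and deeply conserved families 90 of 99.

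Among the deeply conserved families, miR2111, a miRNA that rises in phosphate starvation, was the 1 family with no counts at all, at 4 of 4 intervals. The other undetected conserved intervals were miR156h, miR156i, miR169g-3p, miR399e and miR399f. The interval of miR169g-3p is shifted by 4 bases against that of miR169g-5p-star, which had 77 counts. miR156h and miR156i belong to a family with 5256 counts, and miR399e and miR399f to one with 186. At this depth a count of 0 does not show that a miRNA was absent. A further 54 mature intervals had only 1 to 3 counts. The 8 TAS loci also had 0 counts, as did the 3 mature intervals without a star partner, miR406, miR5642a and miR5642b. How reads were assigned to the TAS loci is not given, so their counts of 0 do not show that trans-acting siRNAs were lacking.

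Mature and star sequences differed in their first base. Among mature counts 94.9% began with T, 4.51% with A, 0.532% with C and 0.0139% with G. Among counts of the 87 detected star sequences that were not also a mature interval, 5.90% began with T, 13.4% with A, 13.5% with C and 67.2% with G. Single stars weigh on these shares: miR398b-star held 2287 of the 3733 counts with G and miR393b-star 688 of the 746 with A. Counted by sequence, 17.2% of the 87 began with T, 14.9% with A, 20.7% with C and 47.1% with G. By length, 85.6% of mature counts came from sequences of 21 bases, 12.2% from 20, 1.10% from 22 and 1.07% from 24, the last nearly all from miR163. Of 176 distinct mature sequences that begin with T, 64 (36.4%) were at 0, against 31 of 57 (54.4%) that begin with A, 9 of 22 (40.9%) that begin with C and 10 of 15 (66.7%) that begin with G, beside 114 of 270 overall. Of the 29 sequences with 22 bases, 7 were at 0, beside 94 of 210 with 21 bases. The annotation itself chose which strand is listed as mature, so these shares describe the list as well as the library.

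The second question was how unequally the strands of each duplex were kept. A ratio was taken for each mature interval and its star where their counts summed to 50 or more, with pairs of identical counts taken once. This gave 76 pairs in 40 families, with 53 mature and 75 star sequences, out of 334 pairs listed. The mature strand had at least 10 times the counts of the star in 68 of the 76 pairs (89.5%), and the star equalled or exceeded the mature strand in 4 (5.26%). In the other 4 the ratio lay between 1 and 10. The median mature share of a pair was 99.1%, with quartiles of 96.1% and 100.0%. The interval of the share lay above 50% in 72 pairs, below it in 3, and included it in 1. Just inside the minimum sum of 50, miR393a, miR447a-3p and miR5995b each had a sum of 55. Just outside it, miR169e had 4 mature and 44 star counts, and miR5595a, whose mature sequence is that of miR5995b, had 46 and 0.

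**Figure D4:**
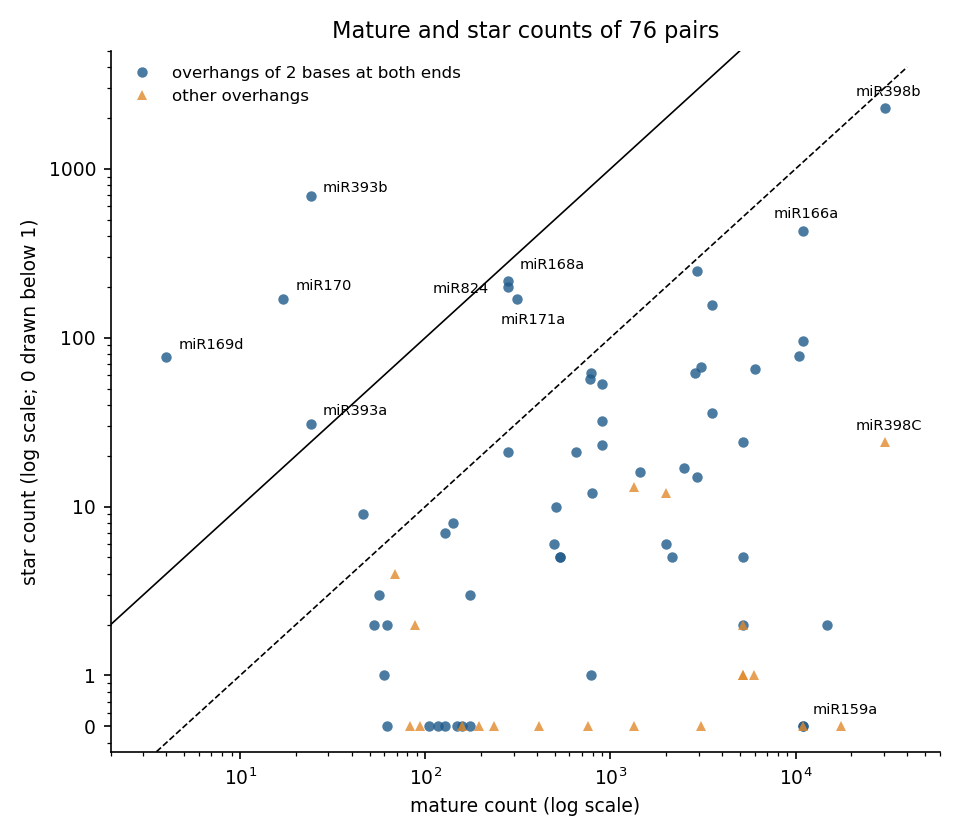
Mature count (horizontal, log axis) and star count (vertical, log axis, with 0 drawn below 1) of the 76 pairs in untreated WT. The solid line marks equal counts and the dashed line a mature count 10 times the star count. Circles are duplexes whose intervals leave overhangs of 2 bases at both ends in the folded precursor, triangles all others. The 8 pairs above the dashed line are all circles, with miR393b, miR170, miR169d and miR393a above the solid line.

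The 4 pairs in which the star led belong to miR393, miR169 and miR170. miR393b had 24 mature and 688 star counts, a mature share of 3.37% (interval 2.17% to 4.97%). The mature strand of miR393 acts on transcripts of the auxin receptors TIR1 and AFB, and miR393b-star is known in Arabidopsis to be loaded into AGO2 and to act on the SNARE transcript MEMB12 in immunity. miR393a had 24 mature counts, which are the same reads as those of miR393b, and 31 star counts, a share of 43.6% (30.3% to 57.7%) that included equality. The star sequences of the pair differ at 1 base (G8T, from miR393b-star to miR393a-star). miR169d, with the same counts as miR169g-5p, had 4 mature and 77 star counts (4.94%, 1.36% to 12.2%). miR170, which targets SCARECROW-like factors, had 17 mature and 170 star counts (9.09%, 5.39% to 14.2%).

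The value of miR170 depends on where its star reads came from. The star of miR170 has the same sequence as that of miR171a, so the 170 counts stand at both loci. miR171a, which differs from miR170 at 2 bases (C12T and C14T, from miR171a to miR170), had 312 mature counts, a share of 64.7% (60.3% to 69.0%). Taken as 1 group, miR170 and miR171a had 329 mature and 170 star counts, or 65.9% mature. The single-locus value of miR170 thus cannot be told apart from star reads of miR171a. For miR393 the direction did not rest on such sharing: with both stars summed, the group had 24 mature and 719 star counts. The 4 loci that share the mature sequence of miR169d had 4 mature and 124 star counts between 3 distinct stars.

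In a further 4 pairs the mature strand had more counts, but less than 10 times those of the star. miR168a, which targets the AGO1 transcript, had 278 mature and 216 star counts (56.3%, 51.8% to 60.7%). Its mature reads are also those of miR168b, and with both stars summed the group had 278 mature and 237 star counts (54.0%, 49.6% to 58.3%), an interval that included equality. miR824, which targets the flowering regulator AGL16, had 280 and 199 (58.5%, 53.9% to 62.9%), and as each of its sequences stands at 1 locus, it was free of sharing between loci. miR171a was described above. miR5995b had 46 and 9 (83.6%, 71.2% to 92.2%). The next pairs in order stood above 92%. miR165a had 2939 mature and 248 star counts (92.2%), and miR390a, which acts on TAS3 transcripts through AGO7, had 789 and 62 (92.7%). miR398b had 30239 and 2287 (93.0%).

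At the other end, 20 pairs had no star counts. The largest were miR159a, with 17646 mature counts, and miR166C, miR166d and miR166f, which share the 10980 counts of miR166a. Against a limit of 3 counts at its listed star interval, miR159a had 5882-fold more mature counts. That limit covers counting error at the listed interval of 24 bases and does not bound star reads that start or end elsewhere. miR403 followed with 3101 mature counts, miR319a with 1337, miR394a, which targets the F-box gene LCR, with 759, miR171b with 412 and miR398a with 234. The remainder had fewer than 200, among them miR397b (105), which targets laccases, miR172a (128), which targets AP2-like factors, and miR858b (158), which targets MYB transcripts. A further 13 pairs had 1 to 3 star counts. miR159b had 14796 mature and 2 star counts, and miR396a 5966 and 1.

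Loci that share a mature sequence differed widely in their stars. As the mature reads cannot be assigned to a locus, only the star counts speak for the locus. The star of miR393b had 688 counts and that of miR393a 31. The star of miR168a had 216 and that of miR168b 21, which differ at 2 bases (T5C and T10C, from miR168b-star to miR168a-star). The star of miR165a had 248 and that of miR165b 15, and the star of miR390a had 62 and that of miR390b 1, which differ at 1 base (T19C). Among the miR166 loci, the star sequence of miR166a and miR166b had 429 counts and that of miR166e 96, while the stars of miR166C, miR166d, miR166f and miR166g had 0. By contrast the 3 stars of miR160 were close, with 53 for miR160C, 32 for miR160a and 23 for miR160b.

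The stars of miR398b and miR398C differ only in that the first has 1 more base at the 3′ end, given in capitals below because the 2 intervals had 2287 and 24 counts. The shorter interval thus had 1.05% of the count of the longer one, though its sequence lies wholly within it.
miR398b-star: gggttgatatgagaacacacG
miR398C-star: gggttgatatgagaacacac
Likewise miR157d, whose 20 bases lie within the 21 of miR157a, had 45 counts against 1993 for miR157a. In both cases the compared intervals lie at different loci, and whether the bases next to them or the rule for assigning reads set these counts was not tested.

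The star intervals were compared with the annotation and with the folded precursors, a comparison chosen after the counts had been seen. Where the star interval coincided with a mature miRNA of the RefSeq annotation (22 pairs), the median star count was 64.5, 1 of 22 pairs had a star at 0, and the median mature share was 95.2%. Where it overlapped an annotated miRNA but was shifted (20 pairs), the median was 6.5, and where none was annotated (34 pairs) it was 2.0, with 16 at 0. Star intervals of 21 bases (54 pairs) had a median of 9.5 counts and those of other lengths (22 pairs) a median of 1.0. The star interval of miR159a has 24 bases and that of miR403 has 20.

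**Figure D5:**
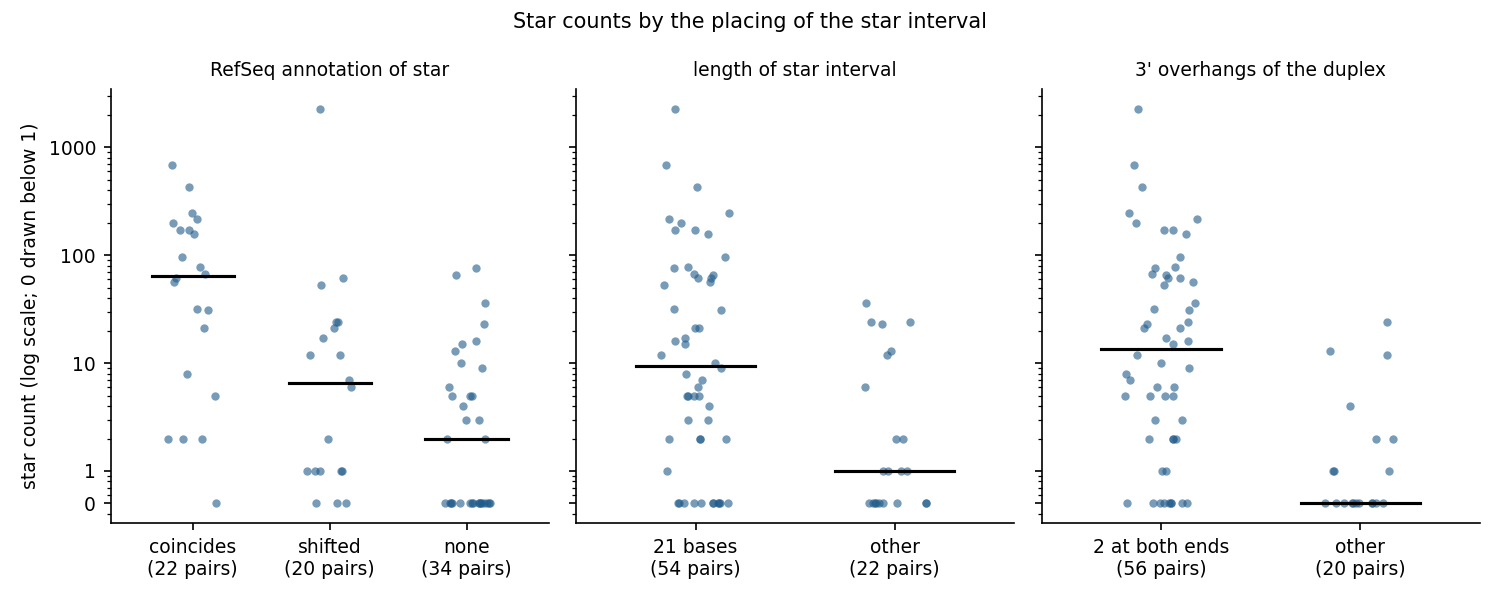
Star counts (log axis, with 0 drawn below 1) of the 76 pairs in untreated WT, split by whether the star interval coincides with, is shifted from, or has no RefSeq annotation (left), by its length (middle) and by the overhangs of the duplex in the folded precursor (right). Points are pairs and lines medians. Medians are 64.5, 6.5 and 2.0 on the left, 9.5 and 1.0 in the middle, and 13.5 and 0.0 on the right.

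In the folded precursors, the intervals of 56 pairs left 3′ overhangs of 2 bases at both ends, the form that DCL1 leaves. Their median star count was 13.5, with 9 at 0 and 39 above 3. The other 20 pairs had a median of 0.0, with 11 at 0, and 4 above 3, which were miR398C (24), miR319b (13), miR157C (12) and miR158b (4). All 8 pairs with less than 10 times more mature than star counts were among the 56. The star interval of miR159a would leave an overhang of 5 bases. Even among the 56, the mature strand had at least 10 times the star counts in 48 pairs, with a median share of 98.3%. Interval placing and star counts thus moved together over the pairs, and the part of interval placing in the star counts of 0 was not tested. Points of 1 family share sequence and are not independent.

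The strands themselves differed at their first base. Of the 76 mature strands 65 began with T, and of the 76 stars 10 did, with 45 beginning with G. In 56 pairs (73.7%) the mature strand began with T and the star did not, in 9 both did, in 10 neither did, and in 1, miR845a, only the star did. The median mature share was 99.2% in the first class and 98.4%, 97.4% and 98.1% in the others, against 99.1% over all pairs. Of the 4 pairs led by the star, 3 were in the first class, miR393a, miR393b and miR169d, so the strand with more counts there began with A or G and the scarcer strand with T. The star of miR170 and its mature strand both begin with T.

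The content of A and T in the first 4 bases, a simple measure of how readily a duplex end opens, was higher in the mature strand in 42 pairs, equal in 18 and higher in the star in 16. The star led in 0 of the 42, in 1 of the 18 and in 3 of the 16. Median mature shares were 99.4%, 98.3% and 98.3%. In miR393a, miR393b and miR170 the star had more A and T at its start than the mature strand. miR168a and miR824, in contrast, had more in the mature strand, with 56.3% and 58.5% mature. The mature strand came from the 5′ arm of the precursor in 37 pairs and from the 3′ arm in 39, with median shares of 98.8% and 99.5%. Pairs with a star at 0 numbered 4 of 37 on the 5′ arm and 16 of 39 on the 3′ arm. Many of these pairs belong to 1 family and share sequence, so the counts describe the list and carry no test.

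By function, the lists had median mature shares of 96.6% for auxin (11 pairs), 99.9% for the phase list (10), 99.7% for leaf, meristem and growth (22), 99.9% for copper (5), 96.1% for the small RNA machinery (4) and 98.5% for triggers of trans-acting siRNAs (3), beside 99.1% over all 76. The copper median is the value of miR398C, which sets the 30239 mature counts shared with miR398b against its own 24 star counts. With both stars summed, that group stood at 92.9%. The copper pairs together held 33440 mature and 2373 star counts. The auxin list held 2 of the 4 pairs led by the star, both of miR393, and 0 of its 11 star intervals were without counts, beside 223 of 334 (66.8%) over all families. In the small RNA machinery list miR168a stood at 56.3% and miR168b, with the same mature reads, at 93.0%, while miR162a had 2490 mature and 17 star counts (99.3%) and miR403 had 3101 and 0. In the phase list, the 6 loci that share the 5199 counts of miR156a had from 1 to 24 star counts.

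Names with a 5p and a 3p interval, in place of mature and star, mostly had too few counts to judge. Of 31 such names, 20 had counts and 2 reached a sum of 50. miR173 had 798 counts at 5p and 1 at 3p, and miR172b had 4 at 5p and 128 at 3p. The intervals named miR173-3p and miR173-5p-star are shifted by 1 base against each other and had 1 and 12 counts. At miR169g, below that sum, the arm names did not show the lead of the star. It had 4 counts at 5p and 0 at 3p, while miR169g-5p-star, shifted by 4 bases against miR169g-3p, had 77.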

How the data were processed

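Small RNA of about 15 to 30 bases was cut from a gel (10 µg of total RNA), made into libraries with a NEBNext small RNA kit and amplified for 15 PCR cycles, per the labels' protocols. The authors deposited whole-number read counts per interval with no normalization. Bowtie 0.12.8, bedtools and TAIR10 were used, per the submitters' processing notes. Not given in the sources used here are the rule for assigning reads, the mismatches allowed and the use of strand. On TAIR10.1, all 337 mature and 54 star intervals coincided with RefSeq mature miRNAs, and that reference supplied strands, sequences (read with pysam 0.24.0) and gene context.

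Intervals with identical counts in all 6 samples were counted once, which also merged 12 patterns of different sequences with at most 2 counts here. Family sums count a sequence in each family that lists it, and sums of lists take each sequence once, out of 142310. Shares have exact binomial intervals (scipy 1.17.1), checked on simulated counts. Reads were amplified without molecular identifiers named in the labels, so intervals and the limit of 3 counts cover counting error only. Precursors were folded with RNAfold (ViennaRNA 2.7.2), checked on made hairpins. With 1 library in the group no test was possible. Alternatives covered the counting of identical intervals, the minimum sum, the interval method and near-identical sequences.

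Named miRNAs are the 20 mature sequences and 15 families with most counts, the pairs with the highest and lowest mature shares, pairs near the minimum sum, undetected conserved families and leading members of each list. Others, such as the overlapping intervals, were chosen after their values were seen. The members and lists were chosen with earlier results of these data known.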

Additional observations from a re-analysis of the deposited data

How the results depend on the processing

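The share of counts in the 5 highest mature sequences, 59.1%, was 36.5% with every locus counted as deposited and 61.5% of mature counts alone. That of the 5 highest families, 67.9%, was 75.6% as deposited, 68.4% with mature intervals alone and 71.2% with related numbers joined (miR156 with miR157, miR165 with miR166, miR170 with miR171, miR159 with miR319). Of the 76 pairs, 4 were led by the star, against 2 at a minimum sum of 100, 1 at 200 and 2 with pairs that share a sequence joined. Pairs with at least 10 times more mature counts numbered 68, against 45 of 52 groups so joined. With star intervals that coincide with RefSeq alone there were 22 pairs, 16 of them at least 10-fold, with a median mature share of 95.2% against 99.1%. Pairs with T first in the mature strand alone were 73.7%, and 60.0% with 1 locus per family (24 of 40). The other 38 of the 51 alternatives moved no count by over 1.5 times. The joined groups and the splits by annotation, length and overhangs were chosen after seeing the data. No paired analysis was possible because the group has 1 library and the labels give no replicate numbers. Depth limits every statement on sequences with few counts.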

Other observations

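Some intervals carry a mature name and a star name at once. miR837-3p and miR837-5p-star are the same interval, with 12 counts, and miR1886.2 and the star of miR1886.3 are the same interval, with 27, while miR1886.3 itself had 0. Equal counts under both names occurred elsewhere too. At miR833a the 3p interval and the star of 5p both had 5 counts, and the 5p interval and the star of 3p both had 3. In the following 3 pairs the names are shifted and the counts are not shared. miR866-3p had 28 counts where miR866-5p-star, shifted by 1 base, had 0, and miR5654-3p had 17 where miR5654-5p-star had 0. miR2112-3p had 11 counts and miR2112-5p-star 0.

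Below the minimum sum, the star had more counts than the mature strand in several families. Those with 10 or more star counts were miR169e (4 mature, 44 star), miR1886.3 (0 and 27), miR4245 (2 and 17), miR837-5p (3 and 12) and miR853 (1 and 10). The stars of miR1886.3 and miR837-5p are also listed as the mature miR1886.2 and miR837-3p, so in those families the leading strand has a mature name too. miR169b had 5 mature and 8 star counts. Across the miR169 family, which targets NF-Y subunit transcripts and has 15 mature intervals, 48 mature and 138 star counts were found, so that 25.8% of the family's counts were mature. At miR825 there were 25 mature and 10 star counts. Of mature intervals at 0, 7 had star counts, all but miR1886.3 of them with 1 count each. For miR835-3p, miR862-3p and miR3434-3p among them, the mature 5p interval of the same name also had 1 count. Whether that count and the star count are the same read was not tested.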
